A study of Saccharomyces cerevisiae with 11 samples.

Results

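The comparison described here sets yeast lacking a subunit of the Paf1 complex against wild type yeast, across the genome. Its members are 5 of the 11 arrays of the study: 2 arrays of wild type, 2 of a paf1 deletion strain and 1 of a ctr9 deletion strain, with the deletion arrays pooled into 1 group of 3. The arrays were chosen by their labels alone, and every probe set that is not an array control entered. All of these strains of Saccharomyces cerevisiae were in mid-log growth in YPD, a rich medium, with 4% glucose when total RNA was taken for biotin-labelled Affymetrix arrays. The other 6 arrays follow a TetO2-PAF1 strain, whose PAF1 gene is shut off by doxycycline, with 1 array at each of 0, 2, 4, 5, 6 and 8 h. They are used below as a second readout, mainly of the genes that differed, and to describe the scale of the scores.

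The Paf1 complex binds RNA polymerase II and moves along genes with it. Its subunits Paf1, Ctr9, Cdc73, Rtf1 and Leo1 are known for their part in elongation, in the histone modifications that mark transcribed genes and in the formation of RNA 3' ends. Paf1 and Ctr9 are the subunits whose loss gives the strongest growth defects in yeast. Pooling the deletions asks which transcripts differ from wild type when either of these subunits is missing.

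The strain arrays were deposited as scores that end at 10, with 7 to 13 probe sets per array at the upper bound. A score is not a log signal. Over the middle of the range, the median wild type score rose by 1.02 for each doubling of the signal on the 0 h array of the TetO2-PAF1 strain, but it flattened at the top, so score differences below are not fold changes. The 28 control probe sets with no target in yeast scored from -2.08 to 1.93 on these arrays, and a score in that range is called control level here. Median scores were 4.78 to 5.03 per array. Across probe sets, Pearson's r was 0.933 between the wild type arrays, 0.928 between the paf1 arrays, 0.934 and 0.936 between the ctr9 array and each paf1 array, and 0.894 to 0.916 between a wild type and a deletion array. Nothing in the labels says whether arrays with the same name came from separate cultures, so the tests measure the spread between these arrays, which may be technical.

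PAF1, the deleted gene of the first strain, scored 7.27 and 8.08 in wild type, 1.00 and 0.47 on the paf1 arrays and 6.86 on the ctr9 array. The gene was at control level only where the label says that it was deleted. CTR9 scored 1.84 and 4.36 in wild type, 3.81 and 4.90 on the paf1 arrays and 0.00 on the ctr9 array. The ctr9 array was the lowest, but one wild type array was also at control level. Neither gene passed the pooled test (PAF1 difference -4.90, adjusted p = 0.134; CTR9 difference -0.20, adjusted p = 0.970), since each was low in part of the deletion group. The remaining subunits showed no difference past the threshold: RTF1 differed by 1.11, CDC73 by 0.38 and LEO1 by 0.28.

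The labels do not give full genotypes, and the marker genes showed that the strains differ at other loci. HIS3, a histidine synthesis gene used as a deletion marker, scored -1.69 and -0.54 in wild type, 7.25 and 7.30 on the paf1 arrays and 0.05 on the ctr9 array on the first of its 2 probe sets. TRP1, a tryptophan synthesis gene, scored 7.56 and 7.24 in wild type, -0.65 and -1.96 on the paf1 arrays and 7.28 on the ctr9 array. SRD1 followed the same order, with 8.25 and 7.45 in wild type, 0.66 and 1.83 on the paf1 arrays and 7.37 on the ctr9 array. URA3 was at control level on all 5 arrays, while LEU2, LYS2, ADE2 and MET17 were well above it on each by their brightest probe sets. What a deletion of a subunit does and what a further strain difference does cannot be told apart in genes where the arrays follow such a difference. The same would hold for the pooled calls if both deletion strains shared a further difference from wild type. The mating type looked alike in all 5: STE2, the a-cell receptor for alpha factor, scored 7.18 to 8.28, and STE3, the receptor of alpha cells, 1.69 to 2.47. The entry genes of meiosis IME1 (1.68 to 2.52) and IME2 (1.18 to 3.15) were at or near control level throughout.

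**Figure D1:**
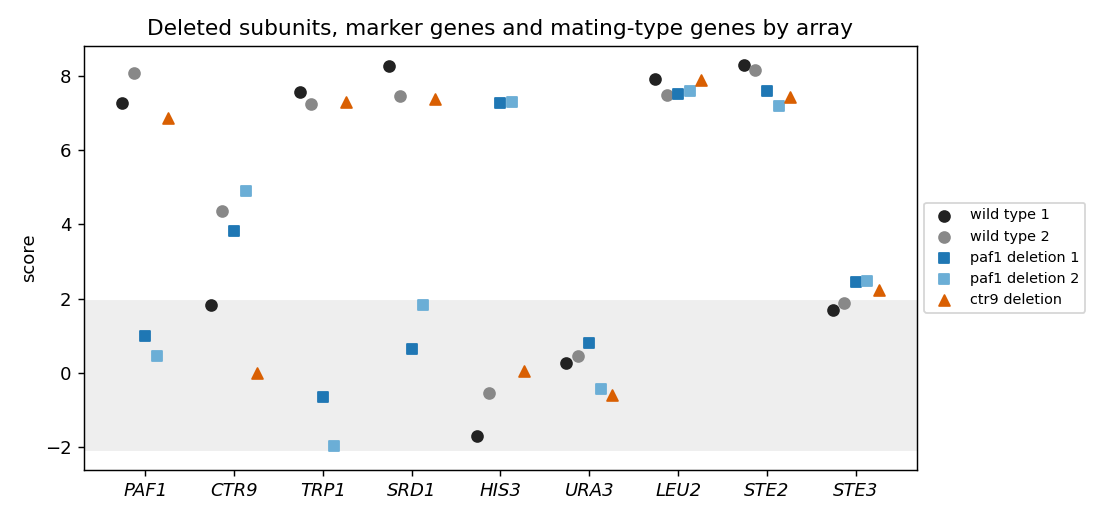
Scores on the 5 strain arrays (vertical axis) for the deleted subunits, auxotrophic marker genes and mating-type genes, with 1 point per array and the range of the 28 no-target controls in grey. PAF1, TRP1 and SRD1 fall into the grey range only on the paf1 deletion arrays, and HIS3 leaves it only there.

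At an adjusted p under 0.05, 166 of 6493 tested probe sets differed, which is 2.56% of those tested. Of these, 116 were higher in the deletions (1.79%) and 50 lower (0.77%). At an unadjusted p under 0.05 the directions were close to even, with 579 higher and 560 lower. The 116 and 50 probe sets past the adjusted threshold named 92 distinct genes that rose and 42 that fell. With 1 probe set per gene, 89 of 4975 genes rose (1.79%) and 39 fell (0.784%). In bulk RNA, fewer cells that make a transcript and less of it per cell cannot be told apart. Over everything tested the groups were balanced, with 3057 differences above 0, 3436 below 0 and a median of -0.035. The 3 deletion arrays lay all above or all below both wild type arrays for 33% of tested probe sets (15.8% higher and 17.2% lower), so that separation alone is common here. The actin control, a sign of RNA quality, also separated the groups: its 5' score exceeded its 3' score by 0.28 and 0.60 in wild type and by 0.90, 0.78 and 0.67 in the deletions. Its part in the results was not tested.

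Many of the genes that rose were barely measured in wild type. The median over the 116 higher probe sets was 3.12 and 3.45 on the wild type arrays, 6.64 and 6.33 on the paf1 arrays and 6.36 on the ctr9 array. The wild type mean was under the filter limit of 2.842 for 47 of them, which therefore passed the filter on the mean only through the deletion arrays, and for 20 both wild type arrays were at control level. The genes that fell started from well-measured levels. Over the 50 lower probe sets the median was 7.08 and 6.87 in wild type, 4.42 and 3.61 on the paf1 arrays and 3.99 on the ctr9 array. The deletion mean was under the filter limit for 11 of them, TDA6, ATF2, MGA1, SEC59 and INA17 among them, which passed the filter only through the wild type arrays. In 1 of the 50 all deletion arrays were at control level.

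Both wild type arrays are needed for these counts. Without the first, 2 probe sets passed, and without the second, 3. HSP26 is the only named gene past the threshold in both cases. At an unadjusted p under 0.05, 612 were higher and 321 lower without the first, and 505 and 695 without the second. None of the 128 called genes changed direction in either case. Leaving out the second paf1 array left 62 calls and the ctr9 array 89, against 137 without the first paf1 array.

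**Figure D2:**
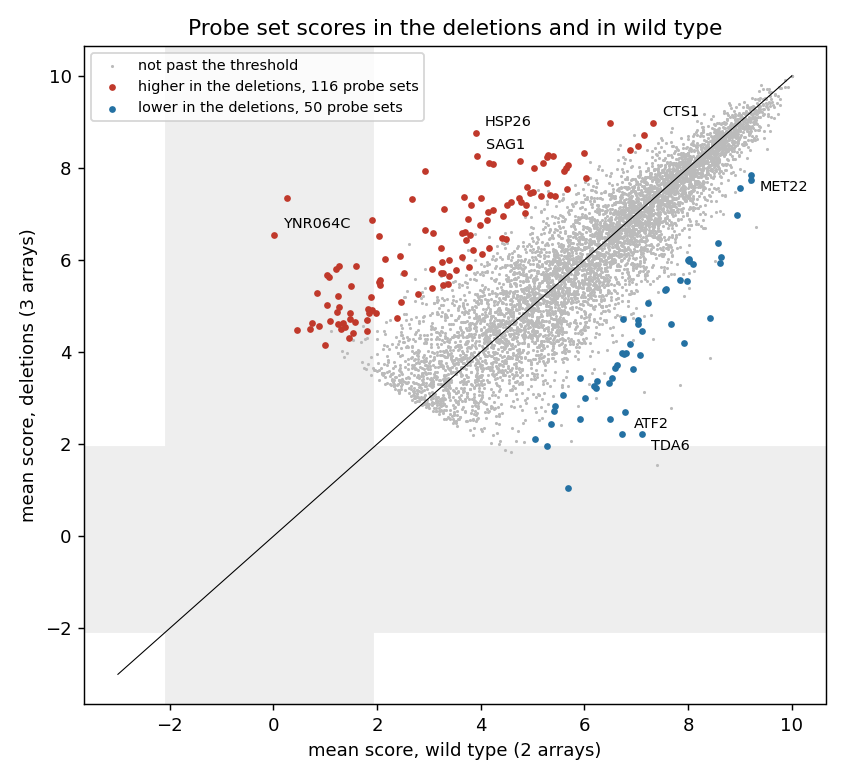
Mean score of the 3 deletion arrays (vertical axis) against the mean of the 2 wild type arrays (horizontal axis), with 1 point per tested probe set and control level in grey on each axis. The 116 higher probe sets spread upward from low wild type scores, while the 50 lower ones start at middle and high scores.

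The largest rise in a named gene was in YNR064C, an epoxide hydrolase. It scored 0.23 and -0.19 in wild type, 6.33 and 6.91 on the paf1 arrays and 6.36 on the ctr9 array, a difference of 6.51 (SE 0.52, adjusted p = 0.000902). It went from control level to clearly measured on every deletion array. HSP26, a small heat shock protein that keeps damaged proteins soluble, scored 3.02 and 4.78 in wild type, 8.79 and 8.58 on the paf1 arrays and 8.91 on the ctr9 array. Its difference was 4.86 (SE 0.53, adjusted p = 0.00449), and the deletion arrays had an SD of 0.17 (n = 3) while the wild type arrays were further apart. YDR042C, an uncharacterised gene, scored 2.70 and -0.27 in wild type and 5.36 to 6.58 in the deletions. Among the 15 largest rises were also PUL3, a transporter of pulcherriminic acid (4.29), AMS1, the vacuolar alpha-mannosidase (3.94), and YTP1, of unknown function (3.86). BOP2 rose by 3.90 but unevenly, with 5.51 and 5.36 on the paf1 arrays and 3.02 on the ctr9 array.

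**Figure D3:**
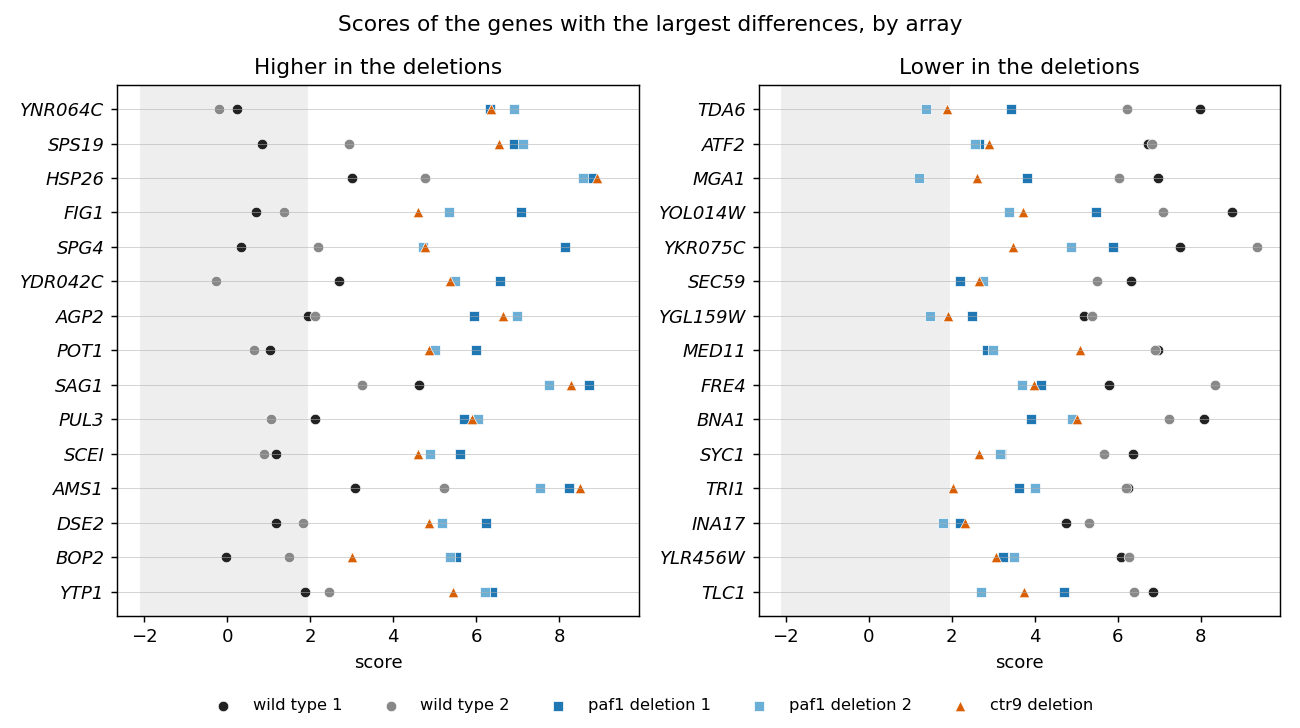
Scores by array (horizontal axes) of the 15 genes with the largest rise and the 15 with the largest fall among those past the threshold, with control level in grey. The genes were chosen among those with separated arrays. Many of the higher ones begin at control level.

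Over all genes, the background for the lists below, 1.79% rose and 0.784% fell. At an unadjusted p under 0.05, 579 of all 6493 probe sets were higher and 560 lower. Genes of the general stress response, most of them targets of the transcription factors Msn2 and Msn4, gave the most rises of any list. Of 57 tested, 13 rose and 0 fell (32 and 0 at an unadjusted p under 0.05), 47 differences were above 0, and the median difference was 1.29 against -0.035 over all probe sets. HSP12, a small membrane-associated stress protein, scored 2.66 and 4.68 in wild type against 7.59, 7.22 and 7.30 in the deletions. GAD1 and UGA1, the glutamate decarboxylase and the transaminase of the GABA shunt, rose by 2.99 and 2.33. TFS1 and PAI3, which inhibit the vacuolar proteases carboxypeptidase Y and proteinase A, rose by 2.36 and 3.01. MCR1, a mitochondrial reductase that was already well measured in wild type, rose by 1.55. The rise did not extend to the whole list. GPD1 (-0.18), GLK1 (-0.18), TRX2 (-0.05) and GRE2 (-0.24) had differences close to 0, and HOR7 had -0.86, none of them past the threshold.

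The 2 wild type arrays differed in several of these genes. HSP78, the mitochondrial matrix disaggregase, scored 2.31 on the first and 5.33 on the second, against 7.02 to 7.35 in the deletions. ATG8 scored 7.87 and 4.34 in wild type against 7.98 to 8.40. The deletion arrays were closer together for both. For HSP78 they were still separated from wild type (difference 3.38, adjusted p = 0.0476), whereas for ATG8 the difference of 2.03 did not pass (adjusted p = 0.229).

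Heat shock proteins and chaperones as a wider class moved less. Of 31 tested, 2 rose (HSP26 and HSP78), 0 fell (7 and 0 at an unadjusted p under 0.05), and the median difference was 0.44. HSP42 differed by 1.65 and the Hsp110 protein gene SSE2 by 1.71, neither past the threshold. HSF1, the heat shock transcription factor itself, rose by 1.97, from 4.37 and 4.60 to 6.34, 6.38 and 6.64. UBI4, the polyubiquitin gene that cells draw on under stress, rose by 2.31, and UBC5, a ubiquitin-conjugating enzyme, by 2.75. Proteasome subunits gave 0 calls among 35 tested by limma (2 higher and 0 lower at an unadjusted p under 0.05), with a median of -0.03.

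Enzymes of the reserve carbohydrates rose on both the synthetic and the degradative side. Of 19 glycogen and trehalose genes tested, 6 rose and 0 fell (12 and 0 unadjusted), with a median difference of 1.29. GLC3, the glycogen branching enzyme, scored 4.80 and 3.68 in wild type, 8.47 and 8.59 on the paf1 arrays and 7.20 on the ctr9 array. GSY1 and GSY2, the glycogen synthases, rose by 2.70 and 2.67. On the side of breakdown, GPH1, the glycogen phosphorylase, rose by 3.81 and GDB1, the debranching enzyme, by 2.49. TSL1, a regulatory subunit of trehalose synthase, went from 4.87 and 5.69 to 7.75, 7.74 and 7.52. The catalytic subunit gene TPS1 was already at 8.80 and 8.56 in wild type and differed by 0.30, which did not pass. Its scores lie where the scale flattens.

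Several genes that glucose normally keeps off were higher in the deletions although the medium held 4% glucose. ADR1, the activator of glucose-repressed and peroxisomal genes, scored 3.77 and 4.23 in wild type against 7.42, 7.26 and 7.38 in the deletions (difference 3.35, SE 0.42, adjusted p = 0.00792). Peroxisomal fatty acid oxidation gave 3 rises and 0 falls among 21 tested (5 and 1 unadjusted), with a median of 0.34. The other rises in it were SPS19, the dienoyl-CoA reductase, and POT1, the ketoacyl-CoA thiolase of the last step of the cycle. SPS19 went from 0.84 and 2.95 to 6.91, 7.14 and 6.55, and POT1 from 1.03 and 0.64 to 6.00, 5.00 and 4.86. Both were low in wild type and clearly measured on each deletion array. In 3 of the 21, SPS19 and POT1 among them, the wild type mean was under the filter limit. These were tested only through the deletion arrays, which favours rises in the count.

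Gluconeogenic and glucose-repressed carbon genes gave 2 rises among 15 tested, ADR1 again and CYB2, the lactate dehydrogenase of the intermembrane space, with 0 falls (8 and 1 unadjusted) and a median of 1.34. In 3 of the 15, CYB2 among them, the wild type mean was under the filter limit. These were tested only through the deletion arrays, which favours rises in the count. ADH2, the glucose-repressed alcohol dehydrogenase, scored 3.31 and 3.86 in wild type against 5.46, 5.46 and 5.52; its difference of 1.90 did not pass (adjusted p = 0.0682). HXT5, a hexose transporter of slow-growing cells, rose by 3.16, from control level in wild type. HXT1, the low-affinity transporter used at high glucose, scored 8.72 and 8.44 in wild type against 7.55, 7.20 and 7.95, a difference of -1.01 that did not pass. CYB2 was also the only call among 50 respiratory chain and citrate cycle genes (6 higher and 0 lower unadjusted), whose median was 0.21. Of these 50 differences, 38 were above 0 and 12 below. All deletion arrays lay above both wild type arrays in 17 and below them in 1, against 15.8% and 17.2% of all probe sets tested. Glycolysis and fermentation had 0 calls among 22 in limma, and 1 each way at an unadjusted p under 0.05.

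A few transporters of nitrogen compounds rose. Of 26 amino acid permease and nitrogen transport genes, 3 rose and 0 fell (4 and 1 unadjusted), against 1.79% and 0.784% of all genes. The list's median was 0.26. AGP2, a plasma membrane regulator of polyamine and carnitine uptake, went from 1.95 and 2.13 to 5.95, 6.99 and 6.64 (difference 4.49, SE 0.50, adjusted p = 0.00519). GAP1, the general amino acid permease, rose by 3.63 and was also low on both wild type arrays (2.15 and 2.74). In 4 of the 26, AGP2 and GAP1 among them, the wild type mean was under the filter limit. These were tested only through the deletion arrays, so the share of rises cannot show an excess in this list. MMP1, the S-methylmethionine permease, rose by 2.34, and outside the list DUR3, a urea and polyamine transporter, rose by 2.85. SAM3, the S-adenosylmethionine permease, was high in wild type and differed by -1.10, not past the threshold.

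Amino acid synthesis did not move as a class, with 35 of 52 differences below 0. Of the 52 genes, 3 rose and 0 fell (5 and 2 unadjusted), against 1.79% and 0.784% of all genes. The 3 were SNZ1, a vitamin B6 synthesis gene (2.96), ARG3, the ornithine carbamoyltransferase (2.92), and SER3, of serine synthesis (2.95). ARG3 scored 7.61 and 7.69 on the paf1 arrays and 9.04 on the ctr9 array, against 4.78 and 5.61 in wild type. In the methionine and sulfur pathway 2 of 28 fell and 0 rose (6 and 0 unadjusted), with 20 differences below 0 and a median of -0.24. MET6, the methionine synthase, fell from 9.33 and 8.68 to 7.67, 7.49 and 7.51, and MET22, a nucleotidase of sulfate assimilation, from 9.39 and 9.02 to 7.93, 7.68 and 7.95. MET3, the ATP sulfurylase, differed by -2.71 (adjusted p = 0.0512).

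Of 26 genes of the iron regulon tested, 2 rose and 1 fell (5 and 3 unadjusted), against 1.79% and 0.784% of all genes. FIT2, a cell wall mannoprotein that helps to retain iron carriers, went from 2.95 and 3.50 to 5.59, 6.47 and 6.69. SIT1, a transporter of iron-bound siderophores, rose by 1.87. FRE4, a ferric reductase, scored 5.80 and 8.34 in wild type against 4.15, 3.69 and 3.99, a fall of 3.13 (SE 0.69, adjusted p = 0.0466). Its wild type arrays were far apart, and both lay above all 3 deletion arrays.

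A few genes of mating and cell fusion rose; no pheromone treatment is named in the labels. Of 24 pheromone-induced genes, 3 rose and 0 fell (5 and 5 unadjusted), against 1.79% and 0.784% of all genes. The list's median difference was 0.28. FIG1, a membrane protein of mating cells, scored 0.70 and 1.38 in wild type, 7.09 and 5.34 on the paf1 arrays and 4.61 on the ctr9 array. PRM1, which acts in the fusion of the plasma membranes, rose by 3.19 and PRM3, which acts in the fusion of the nuclei, by 3.69. In 5 of the 24 the wild type mean was under the filter limit, FIG1 (1.04), PRM1 (2.525) and PRM3 (0.87) among them. These were tested only through the deletion arrays, and genes low on all arrays were left out. The share of rises therefore cannot show an excess in this list. FUS1 differed by 2.02 and did not pass (adjusted p = 0.0704).

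A pair of genes usually assigned to alpha cells moved in opposite directions on these arrays, whose other markers are those of a cells. SAG1, the alpha-agglutinin of the cell surface, went from 4.63 and 3.24 to 8.71, 7.75 and 8.29 (difference 4.32, SE 0.52, adjusted p = 0.00777). AFB1, which binds and blocks a-factor, scored 7.09 and 6.96 in wild type and fell by 2.41 (adjusted p = 0.0442). The alpha pheromone genes did not accompany SAG1: MF(ALPHA)1 scored 0.85 to 1.79 and MF(ALPHA)2 1.82 to 3.10 over the 5 arrays, both too low to be tested. Of the a-specific genes, STE6, the a-factor exporter, had 8.45 and 8.20 in wild type against 7.13, 6.99 and 7.86 and did not pass. STE2 (-0.82), AGA2 (-0.56), BAR1 (-0.33) and MFA2 (-0.02) did not pass either. MFA1 differed the other way, by 0.84 and 0.40 by probe set, without passing. Of 11 mating-type genes tested, 1 rose and 1 fell (1 and 4 unadjusted), with a median difference of -0.33.

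At the cell wall, 4 of 54 genes rose and 0 fell (6 and 1 unadjusted), against 1.79% and 0.784% of all genes. The list's median was -0.05. CTS1, the chitinase that separates daughter cells, went from 7.27 and 7.38 to 9.06, 8.96 and 8.91, and DSE2, a daughter-specific secreted protein, from 1.17 and 1.82 to 6.24, 5.19 and 4.86. PIR3, a wall mannoprotein, rose by 3.52 and NCA3 by 2.53. In 3 of the 54, DSE2 and PIR3 among them, the wild type mean was under the filter limit. These were tested only through the deletion arrays, so the share of rises cannot show an excess in this list. GSC2, a catalytic subunit of glucan synthase that is used under wall stress, has 7 tested probe sets, with differences from 1.18 to 5.00. Of these, 5 rose, but the brightest was not among them, and adjusted p ran from 0.00392 to 0.154 over the 7. ROM1, an exchange factor of the wall integrity GTPase Rho1, rose by 2.48. In flocculins and filamentous growth genes the differences were mostly negative: 12 of 15 were below 0, with a median of -0.60, and 1 fell (6 unadjusted). That gene was MGA1, a relative of heat shock factor known from filamentous growth, with 6.98 and 6.02 in wild type against 3.81, 1.21 and 2.61. FLO10, a flocculin, has 6 tested probe sets; 3 fell, while the brightest of them differed by -2.64 and just missed the threshold (adjusted p = 0.0541).

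No list held more than 2 of the genes that fell. TDA6, of unknown function, had the largest fall among named genes past the threshold: 7.99 and 6.22 in wild type, 3.42 and 1.37 on the paf1 arrays and 1.89 on the ctr9 array (difference -4.88, SE 0.74, adjusted p = 0.0174). ATF2, an alcohol acetyltransferase that also detoxifies steroids, fell evenly, from 6.74 and 6.83 to 2.65, 2.57 and 2.90 (difference -4.08, SE 0.48, adjusted p = 0.00647). SEC59, the dolichol kinase of protein glycosylation, fell by 3.37 and BNA1, an enzyme of NAD synthesis from tryptophan, by 3.06. INA17, an assembly factor of the mitochondrial ATP synthase, fell by 2.94. MED11, a subunit of Mediator, scored 6.96 and 6.91 in wild type, 2.84 and 2.99 on the paf1 arrays and 5.09 on the ctr9 array. CLN1, a G1 cyclin, was the only call among 44 genes of the G1 to S transition and DNA replication, and it fell from 7.83 and 8.12 to 4.83, 5.63 and 6.20. Metabolic genes among the rest were RKI1, the ribose phosphate isomerase (-2.21), POR2, a mitochondrial porin (-2.21), and ORT1, the mitochondrial ornithine carrier (-2.53).

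Among the genes nearest to the complex's own work there were few calls. Over all genes 0.784% fell and 1.79% rose. Of 44 factors of mRNA 3' ends, Nrd1 and the exosome, 1 fell and 0 rose (4 and 1 unadjusted). It was SYC1, a small subunit of the cleavage and polyadenylation factor, at 6.36 and 5.68 in wild type against 3.18, 3.17 and 2.66 (difference -3.02, SE 0.51, adjusted p = 0.0190). PAP2, the poly(A) polymerase of the TRAMP complex, differed by -2.20 and PCF11, a cleavage factor, by -1.69, neither past the threshold. At an unadjusted p under 0.05, 579 of all 6493 probe sets were higher and 560 lower. The 38 other elongation and histone-modifying factors had 4 each way at that p and 0 calls in limma. The closest was SPN1, from 7.82 and 7.53 to 8.68, 8.95 and 8.68 (adjusted p = 0.0565).

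Noncoding RNAs included 1 rise and 1 fall. TLC1, the telomerase RNA, scored 6.86 and 6.39 in wild type, 4.71 and 2.70 on the paf1 arrays and 3.74 on the ctr9 array, a fall of 2.91 on 1 of its 2 probe sets (adjusted p = 0.0428). SNR38, a box C/D snoRNA, went the other way from most of its class, from 4.92 and 5.74 to 7.65, 7.16 and 7.45. Of the 46 RNAs named SNR, 32 had a difference below 0, with a median of -0.54. Past the threshold 1 rose and 0 fell (2 and 10 unadjusted). Over the 44 snoRNAs tested, the median score was 5.92 and 6.67 on the wild type arrays. It was 6.285 and 5.895 on the paf1 arrays and 5.925 on the ctr9 array, so these medians did not separate the groups. SNR68, the next by p, scored 9.14 and 8.19 in wild type against 7.74, 6.65 and 6.62 (adjusted p = 0.0926).

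Large housekeeping classes stayed close to the median of all probe sets. Among 82 cytosolic ribosomal protein genes, 69 mitochondrial ones, 137 ribosome biogenesis genes and 40 genes of RNA polymerases I and III there were 0 calls in limma, with medians of 0.02, 0.13, -0.11 and -0.02. At an unadjusted p under 0.05 they had 0, 4, 4 and 3. The 26 ergosterol genes also had 0 calls (5 lower unadjusted), with 19 differences below 0 and ERG5 the closest (-1.32, adjusted p = 0.0538). The 18 phosphate starvation genes, the 17 purine and GTP synthesis genes, the 7 marker genes and the 4 histone genes with a probe set of their own had 0 as well in limma, and 1, 2, 2 and 0 unadjusted. Of 11 hexose transporters and sensors, HXT5 alone passed. Of the 6 subtelomeric COS genes tested, COS12 rose by 3.73.

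Of 51 meiosis and sporulation genes, 11 passed the filter. SPS19 alone rose and 0 fell (6 and 1 unadjusted), with 9 of the 11 differences above 0 and a median of 1.14. In 4 of the 11 the wild type mean was under the filter limit.

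**Figure D4:**
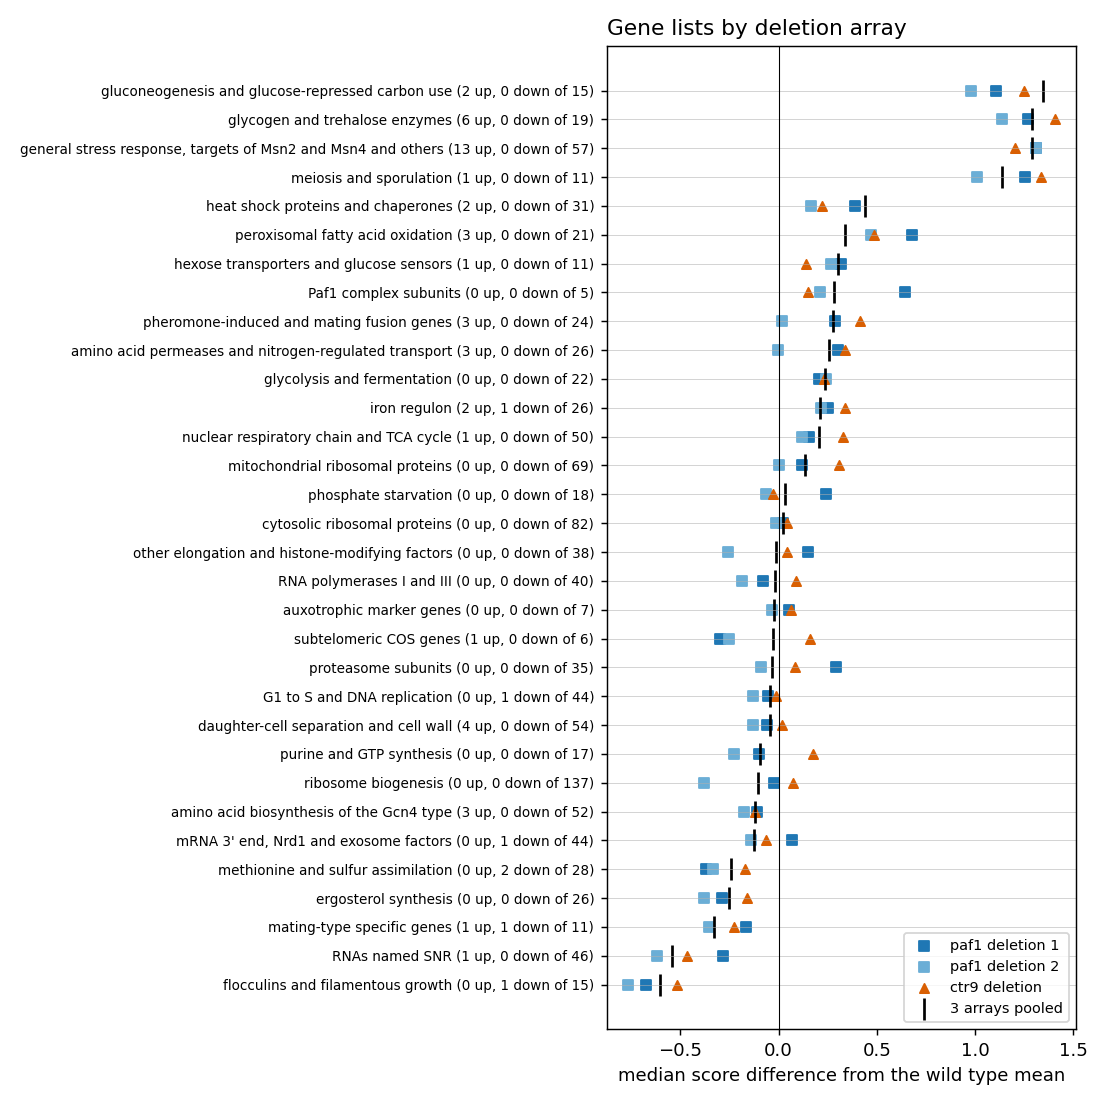
Median score difference from the wild type mean (horizontal axis) of each gene list, for each deletion array and for the 3 arrays pooled, with the number of genes that rose and fell beside the list's name. By the pooled median, stress, glycogen and trehalose, glucose-repressed and sporulation genes lie above 1, and flocculins and RNAs named SNR lowest.

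Within the deletion group the ctr9 array differed from the paf1 arrays about as much as these differed from each other. The median size of its difference was 0.41 from the first paf1 array and 0.44 from the second, close to the 0.45 between the paf1 arrays and below the 0.57 between the wild type arrays. In 48 of the 116 and 17 of the 50, the ctr9 score lay between the 2 paf1 scores. It was the closest of the 3 to wild type in 45 and 17, and the farthest in 23 and 16. These probe sets were called from all 3 arrays together, which favours arrays that lie close. A fit with the deletions as separate groups, added after the data were seen, gave 4 probe sets that differed between them. That comparison rests on 1 ctr9 array, which is assumed to vary like the other groups. PHM7, a membrane protein gene, had after CTR9 the lowest ctr9 score against the paf1 arrays among genes taken by their brightest probe set, with 2.08 and 2.20 in wild type, 5.74 and 4.45 on the paf1 arrays and 2.28 on the ctr9 array.

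The genes past the threshold were also placed on the chromosomes. Of all genes 1.79% rose and 0.784% fell, and the number of neighbouring pairs that these shares alone would give was not computed. Of 4044 pairs of tested genes that are direct neighbours in the RefSeq annotation, 2 had both members called, and both pairs rose: YLL053C with AQY2, an aquaporin gene, and MMP1 with GTT2, a glutathione transferase, all on chromosome XII. On chromosome XIV, FRE4 fell while PUL3, with 1 annotated gene between them, rose, and YNR064C, which rose, also has 1 annotated gene between it and PUL3. Among the outermost 10 annotated genes of each chromosome end, 131 were tested; 8 rose, or 6.11% against 1.79% of all genes, and 1 fell, with a median difference of 0.16. The risers there were COS12, GTT2, MMP1, MSC1, PUG1, YKR104W, YML131W and YPS6, and the gene that fell was YLR456W. COS12, PUG1, YKR104W, YML131W and YPS6 had wild type means of 1.235 to 1.8, under the filter limit. They passed the filter only through the deletion arrays. Genes low in wild type that did not rise were left out, so the share of 6.11% cannot show an excess by position. SCEI, the homing endonuclease encoded in an intron of the mitochondrial large ribosomal RNA, was the only mitochondrial DNA gene among the 15 largest rises (0.89 to 1.18 in wild type, 4.59 to 5.62 in the deletions).

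The TetO2-PAF1 series gives a separate readout of the same genes after doxycycline is added to shut off PAF1. Its signals are linear, with 1 array per time, so the values are a description without a test. The study has no later array of this strain without doxycycline. Time in culture, doxycycline and the loss of PAF1 therefore cannot be told apart in it. The PAF1 transcript had signals of 272.0, 118.8, 139.0, 164.8, 184.0 and 165.8 at 0, 2, 4, 5, 6 and 8 h, so that it was reduced and not gone. Of the 116 probe sets higher in the deletions, 83 (71.6%) were at least 1.5-fold higher in the mean of 6 and 8 h than at 0 h, against 17.3% of all tested, and 5 (4.31%) were at least 1.5-fold lower. Of the 50 lower ones, 19 (38%) were at least 1.5-fold lower, against 9.32% of all, and 2 were higher by that much. Among the 69 higher probe sets that did not need the deletion arrays to pass the filter, the share was 81.2%, and among the 39 lower ones that did not need the wild type arrays it was 35.9%. The rise was not limited to the stress, heat shock and glycogen lists: of 71 risen genes outside them, 58 were at least 1.5-fold higher. Genes outside these lists may still respond to stress.

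HSP26 had signals of 291.8, 2057.4, 2921.8, 311.2, 1263.0 and 1778.0 at 0, 2, 4, 5, 6 and 8 h, high on every later array but that at 5 h. SPS19 climbed more steadily, with 90.8, 175.5, 227.2, 218.7, 261.1 and 345.7. Among genes lower in the deletions, ATF2 dropped within the first interval, from 223.5 to 50.6, and stayed at 50.6 to 88.4. FRE4 did the same, from 176.3 to 51.9 and then 36.3 to 59.1. Some deletion calls did not pass 1.5-fold in the time course, TDA6 (log2 ratio -0.22) and FIG1 (-0.15) among them. TDA6 had a signal of only 27.8 at 0 h. For probe sets around a 0 h signal of 29.4 the median wild type score was 2.23, near control level. TDA6 thus had little signal to fall from, and its ratio cannot show whether it fell. FIG1, higher in the deletions, had no counterpart: its signals stayed at 25.8 to 45.0 and showed no rise. The reverse case was ribosome biogenesis, with 85 of 137 genes at least 1.5-fold lower in the time course and 0 calls in the deletions. The 4 h array, which is not in the ratio, had an actin 5' signal of 5.92% of the 3' signal, against 68.6% to 78.6% on the others. At 6 h the spike-in controls stood at 3.93 times their 0 h signal, and at 8 h at 1.08 times; with the 8 h array alone, 81 of the 116 and 21 of the 50 passed the fold in the same direction.

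**Figure D5:**
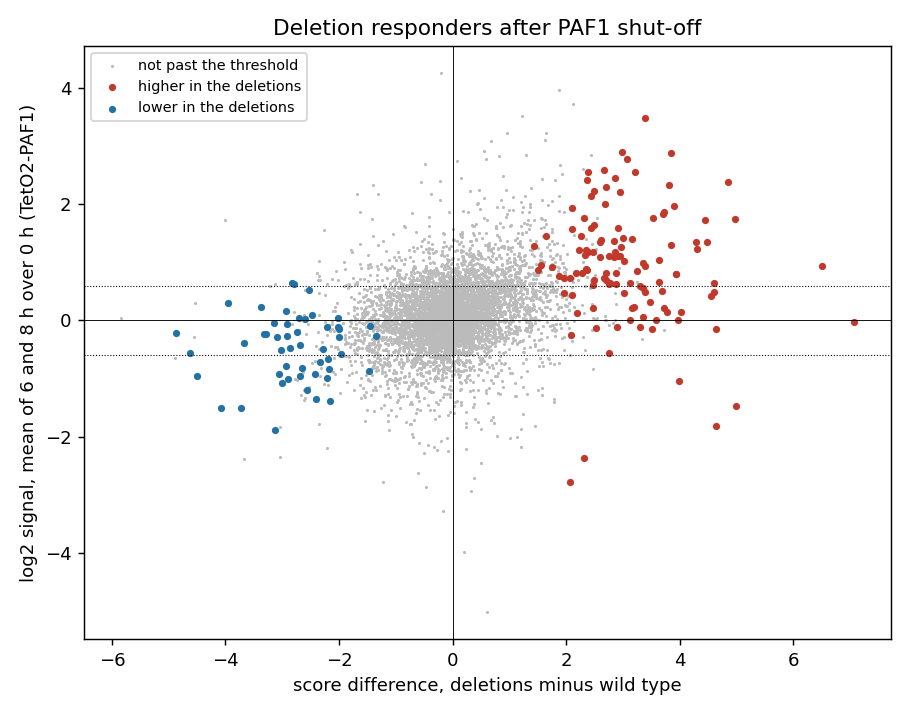
log2 ratio of the mean signal at 6 and 8 h to that at 0 h in the TetO2-PAF1 strain (vertical axis) against the score difference, deletions minus wild type (horizontal axis), with 1 point per tested probe set and dotted lines at 1.5-fold. Of the 116 higher probe sets 83 lie above the upper line, and of the 50 lower ones 19 lie below the lower line.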

How the data were processed

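The authors deposited bounded scores for the 5 strain arrays and linear signal intensities, of like trimmed mean per array, for the 6 TetO2-PAF1 arrays. Neither the software nor the formula is given in the sources used here. Their value table holds 9335 probe sets, 60 of them controls. By the platform annotation, 6504 of the others name 1 gene, 328 several and 2443 none; all 6504 matched RefSeq by gene ID. No gene is named from a probe set with several.

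A probe set was left out where its mean score over the 5 arrays was under 2.842, the 30th percentile. The other 6493 were tested on the scores as deposited with limma 3.58.1 in R 4.3.3 (lmFit, eBayes with trend, two-sided, Benjamini-Hochberg, threshold 0.05), with 3 deletion against 2 wild type arrays and 3 residual degrees of freedom. An exact permutation of 3 against 2 arrays cannot go below p = 0.2. The fit was tested on simulated scores. Lists use 1 probe set per gene, that with the highest mean score. Time-course signals were floored at 5.6, the 10th percentile.

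Named genes are the 15 largest differences each way among called genes with separated arrays, the complex, markers, mating-type genes, the 5 genes each way with the largest difference between the deletions, and the members of each list with the smallest p. Genes called outside these, and list members near 0, were chosen after their values were seen. The members and the 33 lists were chosen with earlier results of these data known. A planned search of promoters was not run, since no sequence was at hand. The number of arrays limits the precision.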

Additional observations from a re-analysis of the deposited data

Results flagged for a closer look

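A test of the difference between the deletions, in a fit with 3 groups that was chosen after seeing the data, passed the threshold for 4 of 6493 probe sets, each lower where PAF1 was deleted; 190 had an unadjusted p under 0.05. TRP1 differed by -8.585 (SE 0.83, adjusted p = 0.00269), and PAF1, the gene deleted there, by -6.125 (adjusted p = 0.0110). SRD1 also differed by -6.125 (adjusted p = 0.0126). The last is annotated to 4 genes and differed by -7.245 (adjusted p = 0.00227), with 1.40 and 1.51 on the paf1 arrays against 8.23 to 8.70 on the other 3. In each of the 4 the ctr9 array lay near the wild type arrays. With only 1 ctr9 array, each SE and p comes from the spread of the other groups, and the lone array is assumed to vary like them.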

How the results depend on the processing

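Of 14 alternative settings, 12 kept both wild type arrays. Of the 128 genes past the threshold, 72 were tested in all 12 and 17 of them passed in each; 36 passed in each that tested them. In all, 0 of 1736 gene values under the 14 alternatives changed sign. With the 50th percentile filter the calls fell to 66 (49 higher, 17 lower). The lower calls were 27 with no filter, 31 without the trend and 32 with equal weight of the deletions, against 94 with median centring. Leaving out each array in turn gave 2 to 137 calls, of which 2 to 79 higher and 0 to 58 lower by limma (at least 321 lower at an unadjusted p under 0.05 where it was 0); the wild type arrays gave the lowest counts, and without the second paf1 array 62 passed and without the ctr9 array 89. Same-numbered wild type and paf1 arrays did not deviate together across probe sets (r = 0.008). This shows no shared shift by number, but it cannot exclude that they were handled as pairs. A fit with the number as a replicate block gave 198 calls, 118 higher and 80 lower. The ctr9 array has no number and is a block of its own there, so this compares the paf1 arrays with wild type and not the pooled group. The cause of these shifts was not tested. Over the 14 alternatives, the median of the stress list stayed between 1.16 and 1.42 and that of glycogen and trehalose between 1.10 and 1.66, while the sporulation median ran from -1.09 to 1.38.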

Other observations

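Transfer RNAs were not among the gene lists, and the following was noticed after their values were seen. Of 299 annotated tRNA genes, 91 have a probe set of their own and 77 were tested. Of these, 75 scored lower in the deletions, and in 52 (67.5%) all 3 deletion arrays lay below both wild type arrays, against 17.2% of all probe sets tested. The median over the 77 was 5.12 and 5.74 on the wild type arrays, 4.44 and 4.28 on the paf1 arrays and 3.93 on the ctr9 array, and the median difference was -1.11 (-0.035 over all). The median of each deletion array was below that of both wild type arrays. Single genes did not pass in limma: 0 were called, with 34 at an unadjusted p under 0.05, and IMT3 had the largest difference (-2.26, adjusted p = 0.146). The median stayed between -0.92 and -1.11 over the settings tried, those without either wild type array included. The actin 5' minus 3' score also separated the groups, with 0.28 and 0.60 in wild type against 0.67 to 0.90 in the deletions, and its part was not tested. Copies of a tRNA share sequence, so the 77 are not independent. In the TetO2-PAF1 strain the median tRNA signal was 218.8 at 0 h, 124.0, 109.7, 81.7 and 263.2 at 2, 4, 5 and 6 h and 127.4 at 8 h, with the 6 h array above the rest.

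The probe set of the large ribosomal RNA gene RDN25-1 scored 3.51 and 1.73 in wild type, 8.13 and 5.71 on the paf1 arrays and 5.22 on the ctr9 array, a difference of 3.73 that just missed the threshold (adjusted p = 0.0544). An array control at the same RNA, the last of 5 along 25S, showed the same order, with 2.08 and 0.85 against 6.60, 4.12 and 4.27, while the other 9 ribosomal RNA controls differed by -0.88 to 0.96.

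The probe set with the largest difference of all names no gene in the annotation. It scored 1.12 and -0.58 in wild type and 7.27, 7.47 and 7.28 in the deletions (difference 7.07, SE 0.58, adjusted p = 0.000902), and its signal was 9431 to 11417 on all TetO2-PAF1 arrays, 0 h included.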
